A study of Mus musculus with 147 samples.

Results

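The 8 genes that mark the cells between and around the testis cords were read in single cells of mouse gonads, 3 of them interstitial (*Nr2f2*, *Tcf21* and *Pdgfra*) and 5 contractile (*Acta2*, *Myh11*, *Tagln*, *Cnn1* and *Des*). They were taken by name from the 31053 genes of the table of unique molecular identifiers (UMIs). Their levels were described in cells that were not selected as germ cells: 572 wild-type Negative cells of E11.5 to E18.5, which carried neither reporter signal at sorting, and 870 wild-type cells after birth with less than 150 *Ddx4* counts per 1000000 UMIs (CPM), of 7352 wild-type cells after birth. Ages after birth were PND0 to PND8, PND10, PND12, PND14, PND30, PND35 and adult (8 to 10 weeks per the study). Of the 870 cells, 120 were of PND30, PND35 or adult. For background, the same genes were read in 1363 fluorescent fetal cells and in the 6482 cells after birth with at least 150 CPM of *Ddx4*, the RNA helicase of germ cells. All wild-type animals were offspring of males with *Blimp1-mVenus* and *Stella-ECFP* (BVSC) and C57BL/6 females, while *Helq*-null animals made from edited BVSC embryonic stem cells were used in 1 comparison. Fetal cells were sorted by flow cytometry from gonads pooled over several embryos, and each replicate after birth was 1 animal whose cells of germ-cell morphology were picked at random, so the somatic cells after birth are those that came along. Most cells of PND30 and part of those of PND14 were also assigned to different classes of DNA content in their names, and the part of this in their levels was not tested. Gonads of E13.5 to E16.5 were cut into proximal, central and distal parts before sorting. A pool is the cells of 1 time-point and replicate, and 37 of 46 pools held at least 10 of the cells described. Levels per pool of the cells described are given for these 37 pools alone. Some counts of single cells, and the levels by range of *Ddx4*, also draw on the smaller pools.

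The interstitium of the fetal testis holds mesenchymal progenitors, from which steroid-producing Leydig cells and other stromal cells arise. Nuclear receptor *Nr2f2* (COUP-TFII) and the basic helix-loop-helix factor *Tcf21* are transcription factors of these cells, and *Pdgfra* is the receptor through which PDGF ligands from the cords reach them. Peritubular myoid cells wrap the cords in a flat contractile layer and later move sperm along the tubule. Their contractile apparatus is that of smooth muscle: *Acta2* is smooth muscle α-actin, *Myh11* the smooth muscle myosin heavy chain, *Tagln* (transgelin) and *Cnn1* (calponin) bind actin filaments, and *Des* (desmin) forms intermediate filaments. Vascular smooth muscle uses the same genes, so none of the 5 names a myoid cell on its own.

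The sums of the 37 pools held 1202445 to 19241494 UMIs from at least 12 cells, so that a count of 0 in a pool still allows 0.156 to 2.49 CPM (3 UMIs, counting error only). The labelled gate was checked against germ-cell genes. A list of 8 of these (*Ddx4*, *Dazl*, *Dppa3*, *Dnd1*, *Nanos2*, *Nanos3*, *Mael* and *Pou5f1*) summed to 63.4 to 628 CPM in Negative pools of E11.5 to E15.5 and to 1913 to 4217 CPM in fluorescent pools of these ages. At E16.5 to E18.5 it summed to 73.8 to 365 CPM in Negative and to 1746 to 2676 CPM in fluorescent pools. The cells described are a mixture. Cells with at least 200 CPM over the Sertoli genes *Sox9*, *Amh*, *Dhh* and *Cldn11*, which mark the epithelial cells inside the cords, made up 6.25% (E14.5 replicate 2) to 86.96% (E17.5 replicate 1, 20 of 23 cells) of the fetal pools. A level in a pool covers Sertoli and other cells alike, and fewer cells of a type and less RNA per cell cannot be told apart in sums. All 96 cell barcodes recur among the 85 libraries that gave these cells, with no barcode repeated within a library and no pair of cells of different libraries that shared both barcode and UMI total.

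*Nr2f2*, located at chr7:70351944-70366735 on the minus strand (mm10, GENCODE M21), was detected in each of the 37 pools. In Negative cells it measured 114.4 and 164 CPM in the replicates of E11.5, 378 and 332 CPM at E12.5, 358 and 259 CPM at E13.5, and 255 and 666 CPM at E14.5. It measured 352 and 287 CPM at E15.5, 160 and 325 CPM at E16.5, 57.9 and 202 CPM at E17.5, and 521 and 435 CPM at E18.5. The lowest of the 16 fetal pools, E17.5 replicate 1, was also the one with the largest share of cells high in Sertoli genes. Fluorescent cells of the same ages held 0.343 to 28.8 CPM, below every Negative pool. After birth the level was 294 ± 84.8 CPM at PND0 to PND2 (SD, n = 3 pools), 203 ± 147.04 CPM at PND3 and PND4 (n = 3), 130 ± 65.03 CPM at PND5 to PND8 (n = 7) and 42.9 ± 28.6 CPM at PND10 to PND14 (n = 5). At PND30 it was at 0.604 and 1.86 CPM, where a count of 0 allows 0.453 and 0.254 CPM, against 84.3 CPM in the single adult pool of at least 10 cells.

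*Tcf21* (chr10:22817281-22820174, minus strand) lies in full under the antisense gene *Gm10824*, and whether the counting used the strand is not given in the sources used here. It measured 82.3 and 164 CPM at E11.5, 431 and 322 CPM at E12.5, 226 and 103.7 CPM at E13.5, 361 and 343 CPM at E14.5, 397 and 202 CPM at E15.5, 85.1 and 216 CPM at E16.5, 26.7 and 126.7 CPM at E17.5, and 705 and 111.1 CPM at E18.5. The replicates of E18.5 lay farther apart than those of any other fetal age, although their levels of *Nr2f2* were close. After birth *Tcf21* measured 561, 350 and 315 CPM in the pools of PND0 to PND2, 56.1 to 421 CPM with a median of 185 CPM in the 7 pools of PND5 to PND8, and 0 to 79.8 CPM in the 5 pools of PND10 to PND14. The same limit on the strand holds where genes on the other strand overlap part of *Nr2f2* (1826 bases), *Pdgfra* (599 and 451 bases) and *Des* (368 bases).

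*Pdgfra* (chr5:75152292-75198215, plus strand) measured 21.8 and 26.2 CPM at E11.5, 120 and 74.6 CPM at E12.5, 91.7 and 87.2 CPM at E13.5, and 134.1 and 224 CPM at E14.5. At E15.5 it was at 207 and 140 CPM, at E16.5 at 102.1 and 138.2 CPM, at E17.5 at 26.2 and 107.2 CPM and at E18.5 at 511 and 210 CPM. Both pools of E11.5 and the pool E17.5 replicate 1 lay below all other fetal pools. After birth it measured 199 ± 45.7 CPM at PND0 to PND2 (n = 3), 93.1 ± 66.9 CPM at PND5 to PND8 (n = 7) and 39.8 ± 42.1 CPM at PND10 to PND14 (n = 5).

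**Figure D1:**
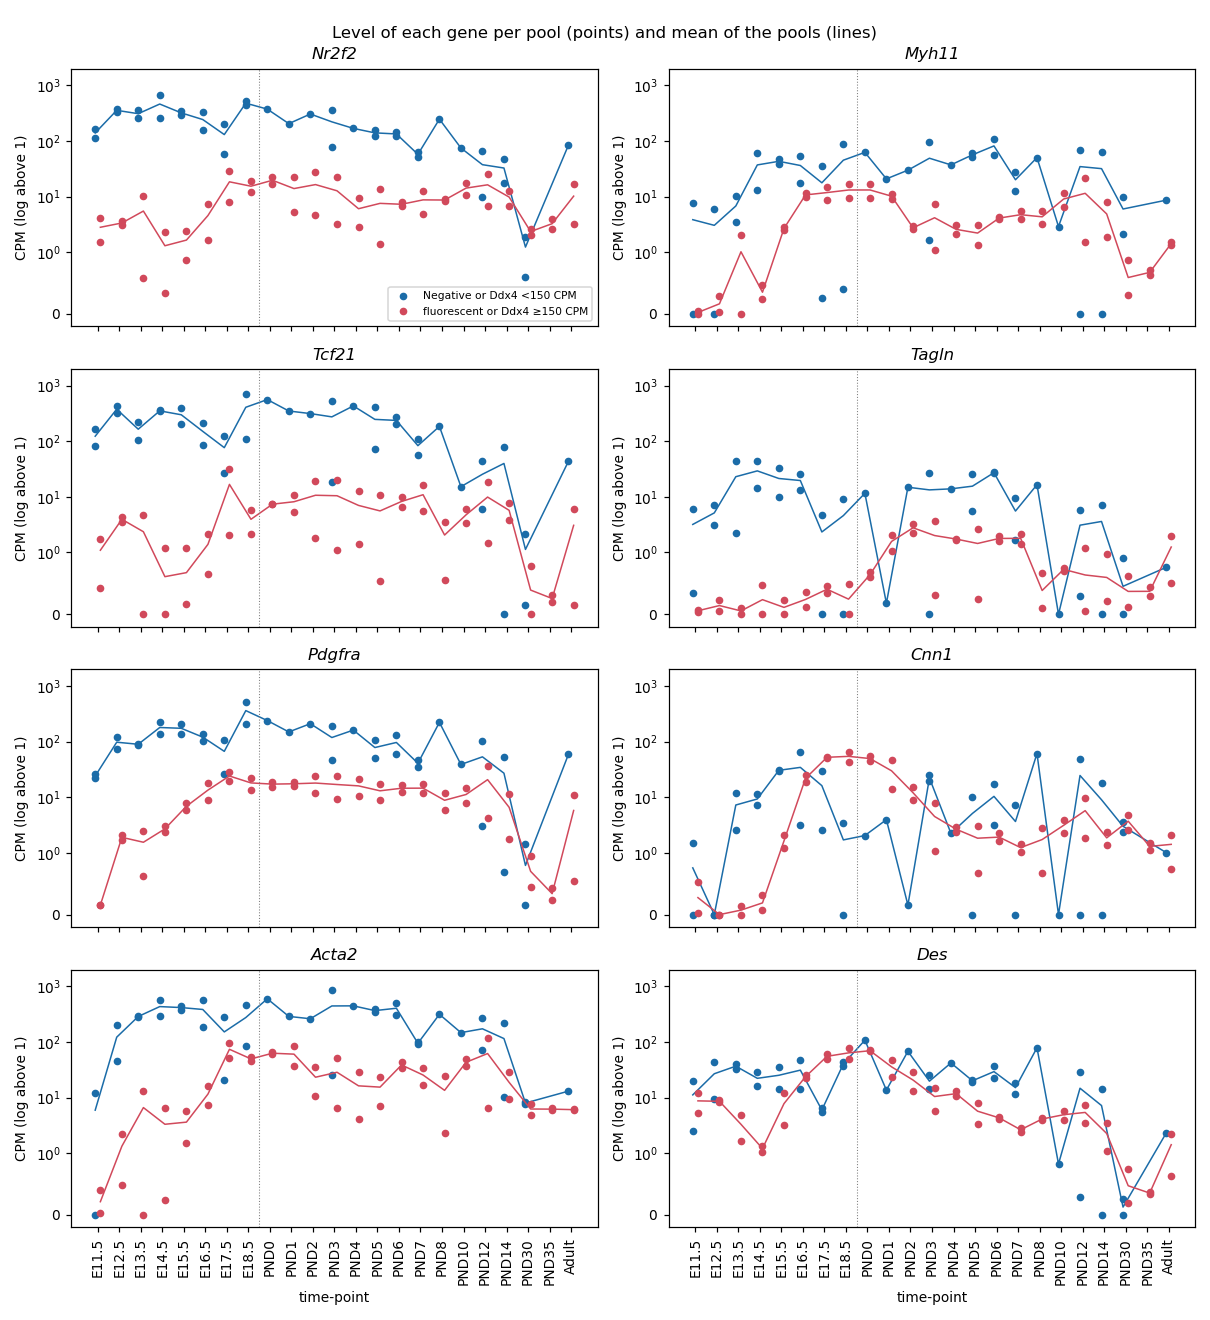
Level of each of the 8 genes in CPM (y axis, logarithmic above 1 CPM) by time-point (x axis). Blue points are pools of Negative cells or, after birth, of cells with less than 150 CPM of *Ddx4*, red points are pools of fluorescent cells or cells with at least 150 CPM of *Ddx4*, and lines join the means. All 16 Negative pools lie above the fluorescent pools for *Nr2f2* (57.9 to 666 against 0.343 to 28.8 CPM), while at E17.5 and E18.5 both red points lie above both blue ones for *Cnn1* and *Des*.

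Among the contractile genes, *Acta2* (chr19:34241090-34255590, minus strand) was at 0 and 11.8 CPM at E11.5, where a count of 0 allows 0.511 CPM, and at 45.4 and 198 CPM at E12.5. It measured 286 CPM in both replicates of E13.5, 290 and 573 CPM at E14.5, 377 and 451 CPM at E15.5, 188 and 578 CPM at E16.5, 20.2 and 282 CPM at E17.5, and 464 and 84.2 CPM at E18.5. All 8 pools of E13.5 to E16.5 except E16.5 replicate 1 lay above the highest pool of E11.5 and E12.5. After birth *Acta2* measured 381 ± 186 CPM at PND0 to PND2 (n = 3), 291 ± 148 CPM at PND5 to PND8 (n = 7), 144.06 ± 107.1 CPM at PND10 to PND14 (n = 5) and 9.65 ± 2.94 CPM at PND30 and in the adult (n = 3).

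*Myh11* (chr16:14194535-14291372, minus strand) measured 0 to 7.67 CPM in the 4 pools of E11.5 and E12.5. It was at 10.0 and 3.50 CPM at E13.5, 12.9 and 61.1 CPM at E14.5, 47.9 and 38.1 CPM at E15.5 and 17.8 and 54.5 CPM at E16.5. The 4 pools of E17.5 and E18.5 split, with 0.26 and 35.1 CPM at E17.5 and 89.7 and 0.407 CPM at E18.5. In the first days after birth it was at 62.3, 20.8 and 29.8 CPM, and in the 7 pools of PND5 to PND8 at 12.6 to 107.2 CPM with a median of 50.6 CPM.

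*Tagln* (chr9:45929619-45936058, minus strand), which overlaps *Pcsk7* and an antisense gene on the other strand, measured 0.341 to 7.23 CPM at E11.5 and E12.5, 2.23 and 43.8 CPM at E13.5, 14.3 and 44.3 CPM at E14.5, 32.7 and 10.1 CPM at E15.5, and 13.2 and 26.1 CPM at E16.5. At E17.5 it measured 0 and 4.68 CPM and at E18.5 9.21 and 0 CPM. The fluorescent pools of all fetal ages held 0 to 0.49 CPM, the lowest background of the 8 genes.

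*Cnn1* (chr9:22099216-22109630, plus strand) was the scarcest of the 5 in early Negative cells: 3 of the 4 pools of E11.5 and E12.5 held no UMI, and the other held 1.51 CPM. It measured 2.55 and 11.9 CPM at E13.5, 7.16 and 11.4 CPM at E14.5, 29.5 and 31.4 CPM at E15.5, 3.16 and 65.6 CPM at E16.5, 2.595 and 29.6 CPM at E17.5, and 3.41 and 0 CPM at E18.5. *Des* (chr1:75360329-75368579, plus strand) showed no such gap, with 2.52 to 43.96 CPM in the 4 pools of E11.5 and E12.5, 15.9 to 40.9 CPM at E13.5 and E14.5, 14.2 to 47.9 CPM at E15.5 and E16.5, and 5.46 to 42.996 CPM at E17.5 and E18.5. For *Des* the highest of the 37 pools were PND0 replicate 1 (107.3 CPM) and PND8 replicate 1 (78.4 CPM). When the 9 groups of ages were ordered by mean level, the pools of neighbouring groups overlapped in all 8 steps for each of the 8 genes.

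Negative and fluorescent cells of the same embryos were compared to ask which of the 8 genes set the somatic gate apart. In all, 5 genes were higher in Negative cells by edgeR's quasi-likelihood test with the pool as a block (16 pools, FDR <0.05), which called 61.1% of 15243 genes in either direction and 26.5% as higher. The log2 fold change was 7.20 ± 0.71 for *Tcf21* (SE, FDR 5.37e-08), 6.30 ± 0.56 for *Nr2f2* (FDR 1.63e-08), 5.24 ± 0.88 for *Acta2* (FDR 3.59e-05), 4.92 ± 0.48 for *Pdgfra* (FDR 4.85e-08) and 3.21 ± 1.00 for *Myh11* (FDR 0.00942), against a median of −0.17 over all genes. Negative cells were higher in 16 of 16 pools for *Nr2f2*, 15 for *Tcf21* and *Pdgfra*, 14 for *Acta2* and 12 for *Myh11*. *Tagln* did not pass the filter on low counts in this fit, with means of 13.6 and 0.187 CPM and Negative cells higher in 14 of 16 pools. *Cnn1* (1.73 ± 1.42, FDR 0.305, 8 of 16 pools) and *Des* (0.98 ± 0.61, FDR 0.175, 10 of 16 pools) did not pass the test, and the fold of *Cnn1* was −0.17 without the block.

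The wider programmes showed the same gate. Of 30 further contractile genes, 25 were tested, 16 were higher and 1 was lower in Negative cells. The largest differences were those of the integrin *Itga8* (log2 4.92 ± 1.40), the regulatory light chain *Myl9* (4.77 ± 0.42) and tropomyosin *Tpm2* (4.69 ± 0.58), while *Mustn1* was lower (−4.58 ± 0.92). Of 37 further interstitial genes, which include PDGF and hedgehog components and stromal transcription factors, 35 were tested, 28 were higher and 1 was lower. The proteoglycan *Dcn* (7.07 ± 0.78) and the activin subunit *Inhba* (6.15 ± 0.79) were among the highest of them, and *Lhx2* was lower (−4.11 ± 0.82). Among PDGF ligands and receptors, *Pdgfra*, *Pdgfrb*, *Pdgfc* and *Pdgfd* were higher in Negative cells, and *Pdgfa* (0.71) and *Pdgfb* (−1.50) did not pass the test. The median log2 fold change was 2.04 over the contractile and 4.10 over the interstitial genes tested. Sertoli genes moved with the same gate (12 of 13 tested higher), as did Leydig genes (5 of 7), and their part in the differences was not tested.

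The gate comparison pooled ages at which the fluorescent cells themselves differed. Per the methods of the study these cells carried both reporters up to E13.5 and were sorted by *Stella-ECFP* alone from E14.5, so the sort changes with age. *Cnn1* was nearly absent from fluorescent cells at E11.5 to E14.5, with 0 to 0.525 CPM in 8 pools (0.0677 and 0.311 CPM at E14.5, after the change of the sort), and measured 2.08 and 1.20 CPM at E15.5, 24.96 and 18.7 CPM at E16.5, 53.4 and 50.9 CPM at E17.5, and 65.6 and 42.8 CPM at E18.5. In cells with at least 150 CPM of *Ddx4* after birth it measured 43.9 and 55.2 CPM at PND0, 13.8 and 45.8 CPM at PND1, 15.1 and 8.96 CPM at PND2, 1.06 and 7.94 CPM at PND3 and 2.41 and 2.91 CPM at PND4. The 8 pools of E16.5 to PND0 thus lay above all earlier and all later pools of these cells up to PND4 except the higher pool of PND1. *Des* took a similar course, with 1.67 and 4.93 CPM at E13.5, 1.05 and 1.37 CPM at E14.5, 12.3 and 3.27 CPM at E15.5, 25.3 and 22.1 CPM at E16.5, 49.1 and 61.02 CPM at E17.5, 77.9 and 49.1 CPM at E18.5, and 68.3 and 70.5 CPM at PND0.

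In a fit of the fluorescent cells alone, E17.5 and E18.5 against E13.5 and E14.5 (4 pools each), 5 of the 7 genes tested were higher at the later ages, where 61.7% of 21141 genes were called, 37.8% as higher, and the median over all genes was 0.70. *Cnn1* rose by 8.07 ± 1.21 on the log2 scale (FDR 4.00e-05), *Des* by 4.16 ± 0.59 (FDR 2.57e-05), *Myh11* by 3.66 ± 1.05 (FDR 0.00634), *Acta2* by 3.14 ± 1.15 (FDR 0.0253) and *Pdgfra* by 2.83 ± 0.73 (FDR 0.00329). *Nr2f2* (1.80 ± 0.87, FDR 0.0808) and *Tcf21* (2.31 ± 1.36, FDR 0.147) did not pass the test, and both passed it without E13.5 replicate 1 (3.32 and 4.03, FDR 0.00399 and 0.0346), and *Nr2f2* by DESeq2 (2.07, FDR 0.0237). The call of *Acta2* was lost without E14.5 replicate 1, E14.5 replicate 2 or E17.5 replicate 1 (FDR 0.0503, 0.0621 and 0.0699).

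The further contractile genes of fluorescent cells did not move as 1 block, with 9 higher and 6 lower among 27 tested. Enteric-type smooth muscle actin *Actg2* (log2 7.57 ± 1.52), the potassium channel subunit *Kcnmb1* (6.05 ± 1.34) and *Itga8* (6.03 ± 1.54) rose the most, and *Mustn1* (−4.73 ± 0.93), filamin *Flna* (−1.65 ± 0.69) and smoothelin *Smtn* (−1.55 ± 0.28) fell the most. Of 37 further interstitial genes, 19 were higher, led by the transcription factors *Foxd1* (8.30 ± 1.43), *Tbx18* (7.49 ± 1.24) and *Osr1* (7.11 ± 1.05), and *Pdgfa* (−1.73 ± 0.37) and the hedgehog receptor *Ptch1* (−1.24 ± 0.33) were lower. Sums over genes of some other cell types also reached higher values in the late fluorescent pools. At E11.5 to E15.5 (10 pools) and E16.5 to E18.5 (6 pools), 14 Sertoli genes summed to 174 to 367 and 446 to 1950 CPM, 8 Leydig genes to 59.02 to 215 and 108.9 to 1223 CPM and 8 pericyte genes to 15.3 to 73.7 and 72.9 to 155 CPM. In the test above, the genes called higher at the later ages were 7 of 14 Sertoli, 6 of 8 endothelial, 6 of 8 coelomic and mesonephric, 4 of 8 macrophage, 2 of 8 Leydig, 2 of 8 pericyte and 2 of 8 blood genes, beside the 37.8% of all genes. The shares of the Leydig, pericyte and blood lists thus lay below that of all genes. Of the 8 germ-cell genes, 7 were called lower, with a median log2 change of −1.76. A list of 8 macrophage genes summed to 2.65 to 103.5 and 130 to 179 CPM, but most of the later level was *Fcer1g* (106.4 to 153 CPM), and *C1qa* and *C1qb* were at 0 in the lowest pools of both ages. Their part in the rise of the contractile genes was not tested.

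A fit with both gates gave the test of the difference itself. The excess of Negative over fluorescent cells was smaller at E16.5 to E18.5 than at E11.5 to E15.5 for *Cnn1* (−7.04 ± 1.44 on the log2 scale, FDR 0.0016), *Myh11* (−4.07 ± 1.44, FDR 0.0459), *Acta2* (−3.82 ± 1.19, FDR 0.0239), *Des* (−2.86 ± 0.92, FDR 0.0285) and *Pdgfra* (−2.31 ± 0.58, FDR 0.00656), where 22.7% of 19965 genes were called and 9.06% as lower. It was not called for *Nr2f2* (−1.84 ± 0.82, FDR 0.117), *Tagln* (−1.98 ± 1.66, FDR 0.432) and *Tcf21* (−1.61 ± 1.08, FDR 0.312). Negative cells exceeded fluorescent cells in *Cnn1* in 7 of 10 pools up to E15.5 and in 1 of 6 later pools, and in *Des* in 9 of 10 and in 1 of 6. With DESeq2's size factors in place of TMM the median over all genes moved from −0.08 to −0.47, and the genes called higher and lower from 2729 and 1808 to 1420 and 2332. Other lists moved in this fit as well, with 3 of 7 Leydig, 4 of 8 blood, 3 of 8 endothelial and 3 of 8 coelomic and mesonephric genes called lower, and their part in the members' change was not tested. Of the 27 further contractile genes tested, 5 were called higher and 6 lower. Of the 37 further interstitial genes tested, 2 were called higher and 11 lower. The calls of *Myh11* were lost without E16.5 replicate 1, E17.5 replicate 1, E17.5 replicate 2 or E18.5 replicate 2 (FDR 0.0747, 0.0768, 0.0630 and 0.0775), that of *Des* without either replicate of E17.5 (FDR 0.0515 and 0.0563) and that of *Acta2* without E18.5 replicate 2 (FDR 0.0523), and *Nr2f2* was called without E16.5 replicate 2 (FDR 0.0233) and by DESeq2 (FDR 0.0202).

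Smooth muscle genes are often controlled through CArG boxes, the site of serum response factor. A window of 250 bases is shown for the 3 contractile genes with a promoter entry, because these genes rose together in fluorescent cells (RefSeq promoters on mm10, 5′ to 3′ on the strand of the gene). The windows do not end at the gene starts given above. That of *Des* ends before the start at base 75360329, and that of *Cnn1* runs past the start at base 22099216. That of *Acta2* lies largely inside the gene as given above, whose 5′ end is at base 34255590. Capitals mark matches to the CArG box with at most 1 base off on either strand.
*Acta2* (chr19:34255374-34255623, minus strand): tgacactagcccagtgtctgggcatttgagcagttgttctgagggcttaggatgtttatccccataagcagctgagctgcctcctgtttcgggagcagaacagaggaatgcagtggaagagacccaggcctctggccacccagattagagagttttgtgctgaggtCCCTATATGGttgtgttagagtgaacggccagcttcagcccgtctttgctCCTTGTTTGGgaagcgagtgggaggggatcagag
*Cnn1* (chr9:22099003-22099252, plus strand): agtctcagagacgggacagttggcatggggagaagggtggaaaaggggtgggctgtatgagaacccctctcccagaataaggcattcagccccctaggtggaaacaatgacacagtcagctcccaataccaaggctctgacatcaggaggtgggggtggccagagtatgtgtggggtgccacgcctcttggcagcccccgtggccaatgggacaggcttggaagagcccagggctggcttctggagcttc
*Des* (chr1:75360042-75360291, plus strand): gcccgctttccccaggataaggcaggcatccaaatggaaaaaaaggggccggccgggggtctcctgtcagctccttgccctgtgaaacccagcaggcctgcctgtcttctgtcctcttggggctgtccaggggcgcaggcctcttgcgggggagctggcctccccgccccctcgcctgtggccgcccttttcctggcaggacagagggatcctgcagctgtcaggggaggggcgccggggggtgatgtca

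The window of *Acta2* held 2 such matches, at bases −84 to −75 and −34 to −25 counted back from the end of the window, which need not be the start site. Those of *Cnn1* and *Des* held none. Of 27025 promoters of the same length, 18.9% held at least 1 such match and 1.40% an exact box. The windows of *Nr2f2*, *Tcf21* and *Pdgfra*, the other members with an entry, held none.

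In the mixture of Negative cells, no change of the 8 genes with age passed the test. Between E11.5 to E12.5 and E13.5 to E14.5 (4 pools each), the ages at which the cords form, 0 of the 8 genes were called, against 0.0137% of 14555 genes. All 5 contractile genes had a positive estimate, at 4.29 ± 1.42 for *Cnn1* (FDR 0.348), 2.61 ± 1.33 for *Myh11*, 2.54 ± 1.14 for *Tagln*, 2.41 ± 1.03 for *Acta2* (FDR 0.487) and 0.56 ± 0.75 for *Des*. The interstitial genes had estimates of 1.07 ± 0.65 (*Pdgfra*), 0.57 ± 0.52 (*Nr2f2*) and −0.03 ± 0.71 (*Tcf21*). *Cnn1*, *Acta2* and *Tagln* had an unadjusted p under 0.05, as had 1317 genes in all, and DESeq2 called 0.989% of genes and again 0 of the 8.

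From E13.5 to E14.5 on to E17.5 to E18.5 (4 pools each), 0 of the 8 genes were called, against 0.22% of 14555 genes, with 1 gene (*Tagln*, −2.79 ± 1.16, FDR 0.338) at an unadjusted p under 0.05 among 1758 such genes. The other 7 genes had estimates of −0.66 to 0.77. Of the 25 further contractile genes tested, only *Itga8* was called, lower at the later ages by 7.43 on the log2 scale with an SE of 1.20 (FDR 0.00949). DESeq2 called 2.51% of genes and 0 of the 8. Without cells high in Sertoli genes the mean of *Nr2f2* was 447 ± 166 CPM at E13.5 to E14.5 (4 pools) and 572 ± 26.4 CPM at E17.5 to E18.5 (3 pools of at least 5 such cells), and that of *Pdgfra* 156 ± 68.4 and 394 ± 132.7 CPM.

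After birth, PND5 to PND8 (7 pools) was compared with PND0 to PND2 (3 pools), and 0 of the 8 genes were called, against 0.0729% of 13714 genes. All 3 interstitial genes had estimates near −1 and unadjusted p under 0.05, among 1213 such genes: *Nr2f2* at −1.18 ± 0.38 (FDR 0.365), *Tcf21* at −1.10 ± 0.48 (FDR 0.548) and *Pdgfra* at −1.10 ± 0.46 (FDR 0.532). The contractile genes had estimates of −1.10 (*Des*), −0.38 (*Acta2*), 0.49 (*Myh11*), 0.89 (*Tagln*) and 2.79 (*Cnn1*). The sum of 14 Sertoli genes had a median of 4183 CPM at PND0 to PND2 and 5983 CPM at PND5 to PND8, and without cells high in Sertoli genes the estimate of *Acta2* was 0.65. DESeq2 called 1.56% of genes and 0 of the 8.

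**Figure D2:**
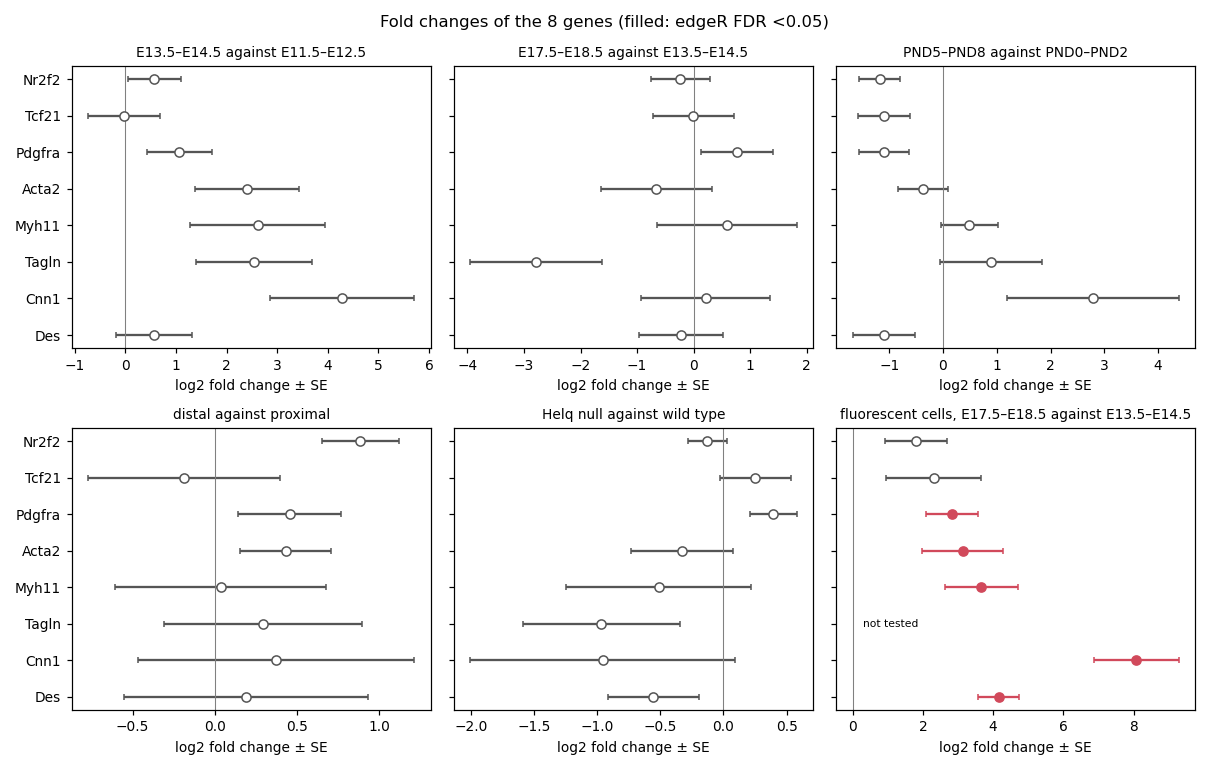
Log2 fold change ± SE (x axis) of each gene (y axis) in 6 comparisons by edgeR, filled where the FDR is below 0.05. Filled points stand only in the panel of fluorescent cells, for *Pdgfra* (2.83), *Acta2* (3.14), *Myh11* (3.66), *Cnn1* (8.07) and *Des* (4.16).

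Which of the genes occurred in the same cells was read after each cell was thinned to 50000 UMIs, to make shallow and deep cells comparable. This left out 60 of the 572 fetal and 153 of the 870 postnatal cells (medians of 162026 and 123574 UMIs before thinning). *Nr2f2* was detected in 425 of 512 fetal cells (83.01%, 92.5% unthinned), *Acta2* in 74.2%, *Pdgfra* in 72.1%, *Tcf21* in 69.5%, *Des* in 28.1%, *Tagln* in 21.1%, *Myh11* in 19.7% and *Cnn1* in 11.3%. In 1314 fluorescent fetal cells at the same depth (median of 303465 UMIs before thinning) the shares were 13.47% for *Nr2f2*, 22.7% for *Acta2*, 18.3% for *Pdgfra*, 8.45% for *Tcf21*, 9.44% for *Myh11* and 0.989% for *Tagln*. For *Des* (30.8%) and *Cnn1* (19.03%) the share in fluorescent cells was above that in Negative cells when all fetal ages were pooled. By pool, *Cnn1* was detected in 0 to 1.43% of fluorescent cells at E11.5 to E12.5 and in 0 to 2.20% at E13.5 to E14.5. It was detected in 6.59 and 2.22% of them at E15.5 and in 34.4 to 67.1% at E16.5 to E18.5. In Negative cells the shares were 0% in all pools of E11.5 and E12.5 and 5.41 to 13.6% at E13.5 to E14.5. They were 20.5 and 16.7% at E15.5 and 0 to 32.6% at E16.5 to E18.5. The 22 Negative cells with at least 100 CPM of *Cnn1* held a median of 10133 CPM over the further contractile genes, against 4581 CPM in the other 550 cells, and were higher in 9 of 9 pools.

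For each pair of genes, the number of cells with both was set against the number that independent detection within each pool would give. Observed numbers exceeded the expected ones in 27 of 28 pairs in fetal cells and in 28 of 28 after birth. The interstitial genes came together in most fetal cells, with *Nr2f2* and *Pdgfra* in 346 of 512 fetal cells where 319 were expected (ratio 1.08). After birth this pair was found in 247 of 680 cells where 171 were expected (1.44). *Pdgfra* was detected in 81.4% of fetal cells with *Nr2f2* and in 26.4% of those without, and in 84.01% and 15.3% after birth. The ratio of a pair is bounded by the share of cells with the more common gene, so pairs of common and of rare genes cannot be ranked by it. Among the rarer contractile genes, *Myh11* and *Tagln* shared 49 fetal cells where 26.4 were expected (1.85, above 1 in 11 of 11 pools) and 53 cells after birth where 17.7 were expected (3.00, 14 of 14 pools). *Tagln* and *Cnn1* shared 30 fetal cells (16.55 expected, 1.81) and 24 after birth (6.13 expected, 3.92), and *Myh11* and *Cnn1* 24 (16.3 expected, 1.47) and 29 (12.2 expected, 2.37). The exception was *Acta2* with *Cnn1* in fetal cells, at 51 observed and 51.9 expected.

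The pairs were also counted in the 329 fetal and 298 postnatal cells that were low in Sertoli genes. There *Nr2f2* was detected in 311 of 329 fetal and 198 of 298 postnatal cells, which leaves little room above the expected number in the fetus. The ratios of *Nr2f2* with *Pdgfra* were 1.03 and 1.08 and those of *Nr2f2* with *Tcf21* 1.02 and 1.07. After birth *Pdgfra* was detected in 90.9% of such cells with *Nr2f2* and in 4% of those without. The pairs of rare contractile genes had ratios of 1.65 and 2.04 (*Myh11* with *Tagln*), 1.80 and 2.36 (*Tagln* with *Cnn1*) and 1.38 and 1.85 (*Myh11* with *Cnn1*). In the 458 fluorescent cells of E16.5 to E18.5, *Cnn1* was detected in 238 cells and *Des* in 286, but 167 cells held both where 156 were expected (1.07), and *Myh11* with *Cnn1* had a ratio of 1.06 and *Acta2* with *Cnn1* of 1.08. Whether the ratios of the 2 kinds of cells differ was not tested.

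At least 1 interstitial gene was detected in 89.8% of the fetal Negative cells, so most cells with contractile genes would hold an interstitial gene in any case. Contractile genes without an interstitial gene were detected in 4.30%. In fetal cells low in Sertoli genes, pairs of an interstitial and a contractile gene had ratios of 0.958 to 1.09. Of 512 fetal cells, 57.8% held all 3 interstitial genes, 76.6% held genes of both kinds and 5.86% held none of the 8. At least 3 contractile genes were detected in 99 cells (19.3%), and 0 of 512 cells held 3 contractile genes without an interstitial gene. This allows a share of up to 0.586% of all 512 cells, and a larger share of the 99. After birth, 30.5% of 717 cells held all 3 interstitial genes, 45.7% both kinds and 21.8% none, and 4 of the 83 cells with at least 3 contractile genes held no interstitial gene. Among 1314 fluorescent fetal cells, 0.989% held all 3 interstitial genes, while 47 cells (3.58%) held at least 3 contractile genes without an interstitial one.

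**Figure D3:**
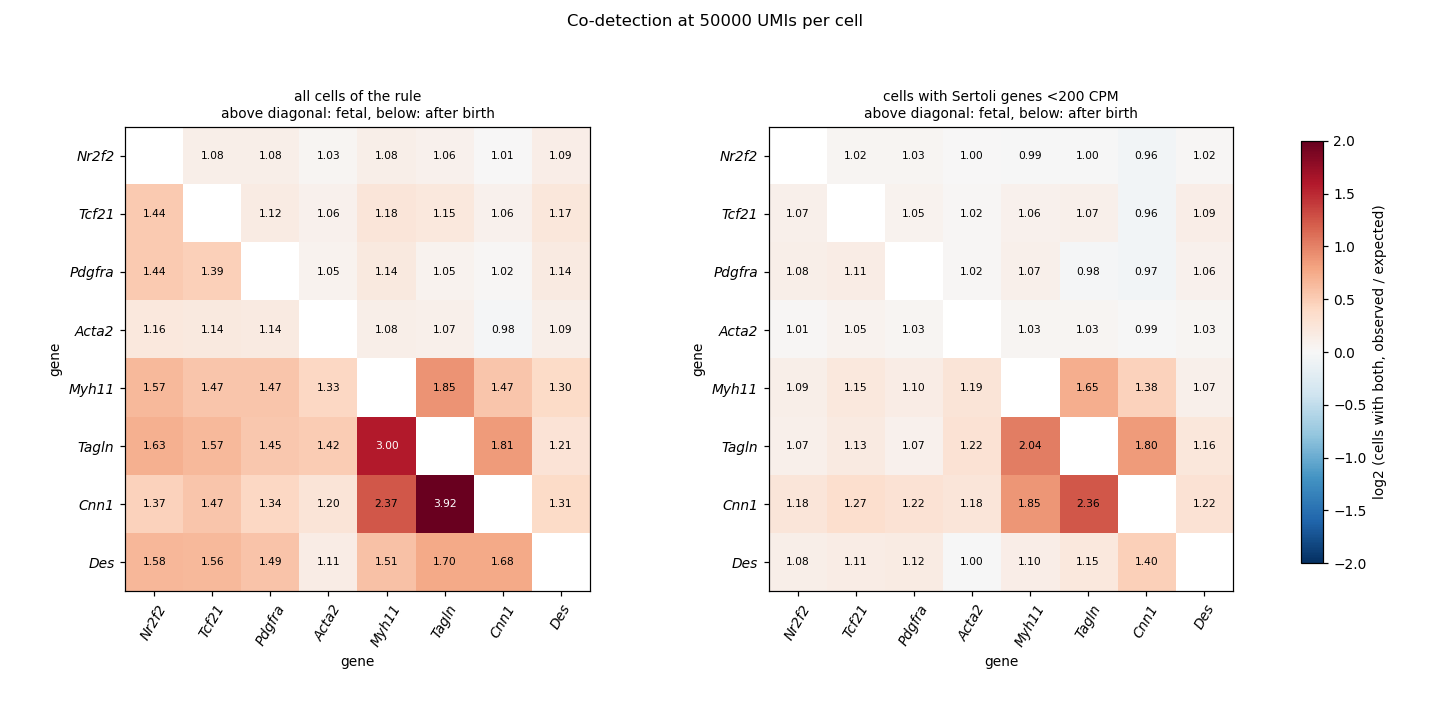
Observed over expected number of cells with both genes of a pair on a log2 colour scale, with fetal cells above and cells after birth below the diagonal, in all cells described (left) and in those low in Sertoli genes (right). The 3 pairs among *Myh11*, *Tagln* and *Cnn1* lie at 1.47 to 3.92 on the left and 1.38 to 2.36 on the right, and pairs with a common gene such as *Nr2f2* cannot rise far above 1 in fetal cells.

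The joint levels of *Acta2* and *Nr2f2* in single cells were counted by age, with at least 100 CPM taken as high. At E13.5 to E14.5, 97.4% of the cells high in *Acta2* were also high in *Nr2f2*, and 3 cells were not. This share was 92.3% at E11.5 to E12.5, 80.5% at E15.5 to E16.5, 89.3% at E17.5 to E18.5, 93.2% at PND0 to PND2, 94.4% at PND3 to PND4 and 81.03% at PND5 to PND8, and at PND10 to PND14 it was 25% (21 of 84 cells). These shares depend on how common cells high in *Nr2f2* were at each age, so they cannot be ranked as a strength of linkage. Such cells made up 59.6 to 97.9% of the pools of E13.5 to E14.5 and 0 to 25% of those of PND10 to PND14. Of the cells high in *Nr2f2*, 76.9% were high in *Acta2* at E13.5 to E14.5 and 67.7% at PND10 to PND14. Of the 63 cells high in *Acta2* alone at PND10 to PND14, 59 were high in Sertoli genes, and their median *Acta2* was 196 CPM against 606 CPM in the 21 cells high in both. At PND5 to PND8 the cells high in both had a median of 2213 CPM of *Acta2*, against 542 CPM at E13.5 to E14.5.

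Among cells high in *Nr2f2* and low in Sertoli genes, the cells were counted in 3 ranges of *Acta2*, and the middle range held most cells at E13.5 to E16.5 alone. At E11.5 to E12.5, 39 of 51 such cells had less than 100 CPM of *Acta2*, 10 had 100 to 1000 CPM and 2 had 1000 CPM or more. At E13.5 to E14.5, these numbers were 28, 80 and 25, and at E15.5 to E16.5 they were 13, 64 and 23 of 100 cells. At E17.5 to E18.5 they were 27, 14 and 7 of 48 cells, at PND0 to PND2 35, 25 and 21 of 81 cells, and at PND3 to PND4 19, 11 and 19 of 49 cells. At PND5 to PND8, 34 of 77 cells lay below 100 CPM, 12 in the middle range and 31 at 1000 CPM or more. At PND5 to PND8 *Myh11* was high in 27 of the 31 cells of the top range and in 0 of the 34 of the bottom range (0 of 34 allows a share of up to 8.82%). The top range drew on 6 and the bottom range on all 8 of the pools of PND5 to PND8, and at E13.5 to E14.5 *Myh11* was high in 7 of the 25 cells of the top range. At PND10 to PND14 the 3 ranges held 9, 6 and 7 of 22 cells, and all 7 cells of the top range came from 1 pool. These are counts of cells, and cells of 1 pool share their animal or embryos, so no test was made.

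**Figure D4:**
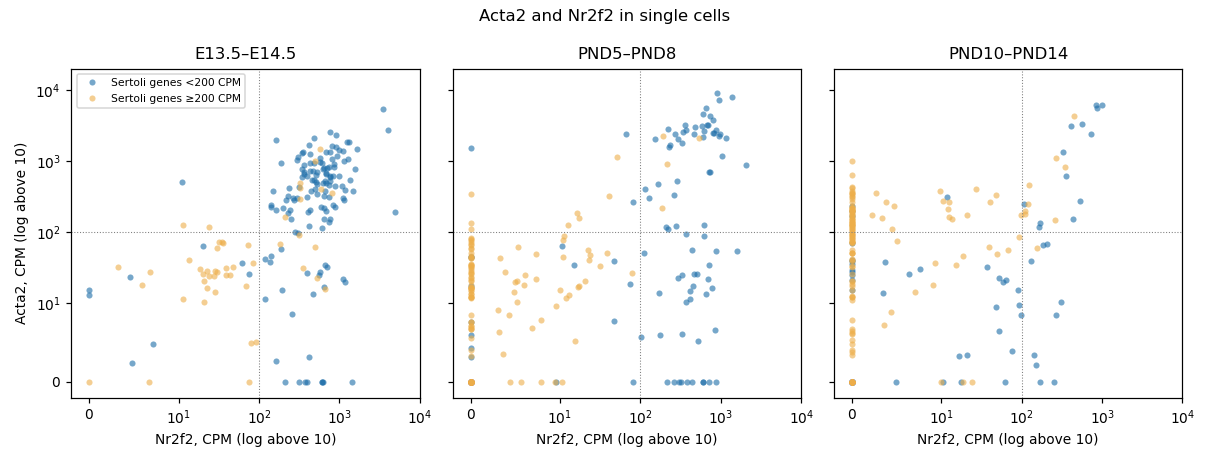
*Acta2* (y axis) against *Nr2f2* (x axis) in CPM, both logarithmic above 10 CPM, in single cells at 3 groups of ages, with cells of at least 200 CPM of 4 Sertoli genes in orange and dotted lines at 100 CPM. Cells high in *Nr2f2* and low in Sertoli genes were counted below 100 CPM, at 100 to 1000 CPM and from 1000 CPM of *Acta2*. These counts were 28, 80 and 25 at E13.5 to E14.5 and 34, 12 and 31 of 77 at PND5 to PND8. The column of orange cells at 0 CPM of *Nr2f2* fills the middle of the y axis at PND10 to PND14.

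The proximal, central and distal parts of the gonad were compared in Negative cells of E13.5 to E16.5 (8 pools, each with all 3 parts, 13 to 16 cells per part). *Nr2f2* measured 260 ± 150 CPM in proximal, 329 ± 154 CPM in central and 447 ± 232 CPM in distal parts, and the distal part lay above the proximal one in 7 of 8 pools. The exception was E16.5 replicate 2, with 384 CPM in the proximal and 219 CPM in the distal part. The difference did not pass the edgeR test with the pool as a block (log2 0.88 ± 0.23, unadjusted p = 0.000865, FDR 0.227). It passed without this pool (1.10, FDR 0.0158), but leaving out the only pool that ran the other way was bound to raise it. In all, 0 of the 8 genes were called, against 0.0166% of 12062 genes, and *Nr2f2* alone had an unadjusted p under 0.05, as had 1059 genes (DESeq2 called 0.871% of genes and 0 of the 8). *Pdgfra* (0.45 ± 0.31) and *Acta2* (0.43 ± 0.28) were next, and the other 5 had estimates of −0.19 to 0.37. *Wnt5a*, a Wnt ligand of the mesenchyme and the only further interstitial gene called of 33 tested, was higher in the distal part by 1.16 ± 0.19 (FDR 0.0386). The sum of 14 Sertoli genes was higher in the distal than in the proximal part in 1 of 8 pools (medians of 1937 and 3025 CPM). Without cells high in Sertoli genes the estimate of *Nr2f2* was 0.39 ± 0.31, and those of *Pdgfra*, *Acta2*, *Myh11*, *Tagln* and *Des* were below 0.

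**Figure D5:**
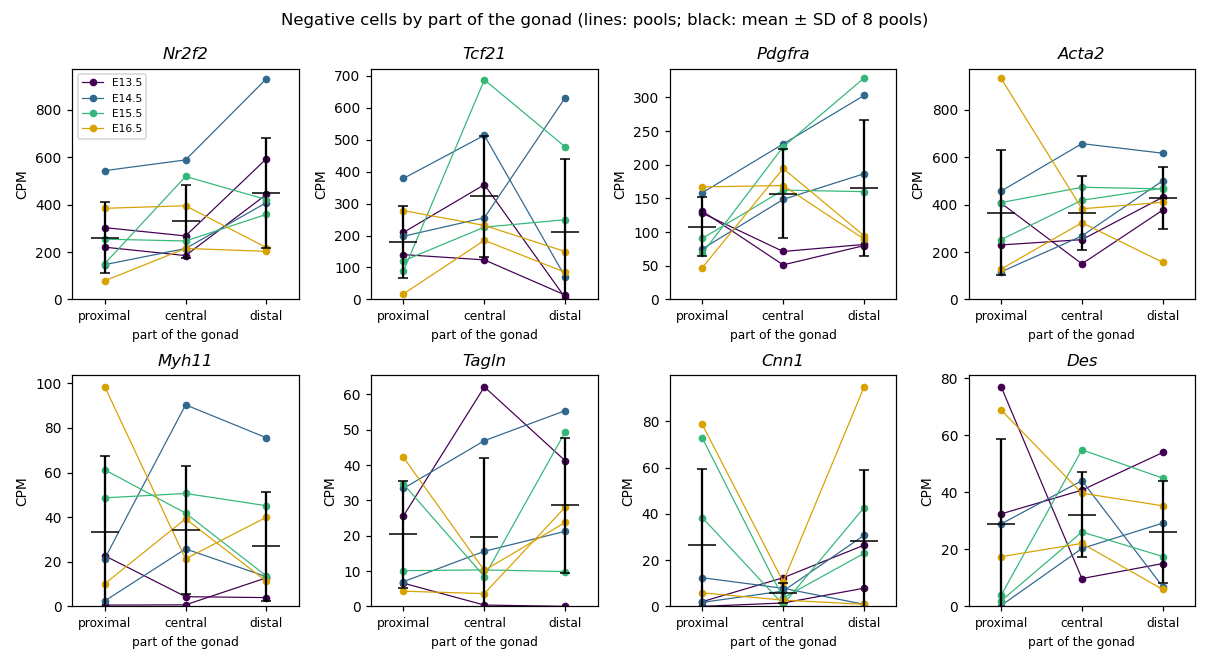
Level of each gene in CPM (y axis) in Negative cells of the proximal, central and distal parts of the gonad (x axis), 1 line per pool of E13.5 to E16.5, with the mean ± SD of 8 pools in black. Distal exceeds proximal *Nr2f2* in 7 of 8 pools (means of 447 and 260 CPM), while for the other genes this holds in 4 to 6 of 8 pools.

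Loss of *Helq*, a DNA helicase, was not accompanied by a called difference in these genes in Negative cells (9 null and 12 wild-type sums, with time-point as covariate, edgeR). Of the 8 genes 0 were called, against 0.093% of 12905 genes, and *Pdgfra* alone had an unadjusted p under 0.05 (log2 0.40 ± 0.18, p = 0.0417, FDR 0.812), as had 774 genes. The other estimates were −0.97 ± 0.62 for *Tagln*, −0.95 ± 1.05 for *Cnn1*, −0.56 ± 0.36 for *Des*, −0.51 ± 0.73 for *Myh11*, −0.33 ± 0.41 for *Acta2*, −0.13 ± 0.15 for *Nr2f2* and 0.25 ± 0.28 for *Tcf21*. DESeq2 called 0.628% of genes and 0 of the 8.

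The genes whose level over the 37 pools was most like that of a member were ranked among 10866 genes with a mean of at least 10 CPM, by Pearson's r of log2(CPM + 1). The pools share their mixture of cell types, so these values are a description. For *Nr2f2* they were caldesmon *Cald1* (0.970), *Wnt5a* (0.970), *Eva1b* (0.951), *Lsp1* (0.949) and *Meg3* (0.947). For *Pdgfra* they were *Tpm2* (0.956), *Cxcl12*, *Col4a1*, *Col1a2* and *Meg3*, for *Acta2* *Adamts2* (0.846), *Casq2*, *Col6a1*, *Ltbp4* and *Mfap4*, and for *Myh11* *Tmem204* (0.796), *Lmod1* (0.770), *Ecscr*, *Nexn* and *Prrx1*. *Pdgfra* ranked 23 and *Tcf21* 71 in the list of *Nr2f2*, *Acta2* 2825 and *Myh11* 5187. In the list of *Myh11*, *Acta2* ranked 11, and in that of *Tagln* it ranked 10.

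The limit on *Ddx4* after birth was looked at from both sides. The 521 cells with less than 50 CPM of *Ddx4* held 307 CPM of *Acta2* and 162 CPM of *Nr2f2*. The 130 cells just inside the limit, at 100 to 150 CPM, held 70.5 CPM of *Acta2*, 38.6 CPM of *Nr2f2* and a median of 195 CPM of the germ-cell gene *Dazl*, and the cells just outside, at 150 to 200 CPM, held 43.7, 21.3 and 621 CPM. Levels after birth therefore include some cells with germ-cell transcripts, and what the cells near the limit are was not tested.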

How the data were processed

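Modified STRT-seq libraries of single cells were deposited by the authors as whole UMI counts per gene, without normalization. Per the submitters' processing notes, CASAVA 1.8, STAR, UMI-tools, and featureCounts of Subread were used with mm10. The 147 library labels give no condition that could be used, so time-point, genotype, replicate, gate and part of the gonad of each cell came from the authors' deposited table of cells and the cell names, which were the same in all 13032 cells. Cells with more than 2000 genes and 10000 to 1000000 UMIs were kept, as in the methods of the study. Cells were sorted or picked singly, and no doublet caller was run.

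The 8 members and all gene lists were chosen with earlier results of these data known. UMIs were summed per pool over at least 10 cells and compared with edgeR 4.0.16 (limma 3.58.1, R 4.3.3; TMM, filterByExpr, quasi-likelihood test, Benjamini-Hochberg FDR 0.05 over all genes tested), with DESeq2 1.42.0 as an alternative. The fit of the gate by age, that of the fluorescent cells by age and the co-detection without cells of high Sertoli genes were added after the data were seen. Where embryos were pooled, p-values measure the spread between pools. For the fit of the gate by age, genes of the further contractile and interstitial lists are counted but not named. For each other comparison and each of these lists, up to 3 called genes that rose most and up to 3 that fell most are named. Also named are the 5 genes most like *Nr2f2*, *Pdgfra*, *Acta2* and *Myh11*. A gene that this rule names is not reported here. *Pdgfb*, *Pdgfc*, *Pdgfd* and *Pdgfrb* are named as members of the PDGF list. Each test, other than the fits of the gate by age and of the fluorescent cells by age, was tried on simulated counts with 200 changed genes. Shares and co-detection were computed after thinning to 50000 UMIs with Python 3.11.15, numpy 2.4.6, scipy 1.17.1, pandas 2.3.3 and matplotlib 3.10.9. Promoters came from RefSeq, where 6 of the 8 members had an entry. The alternatives were size factors, DESeq2, no filter, 5 or 20 cells per sum, the replicate number or pool as a block, leaving out cells high in blood or Sertoli genes, other limits on *Ddx4*, other depths and thresholds for co-detection, and leaving out each pool. The 2368 cells of E6.5 to E10.5 and the authors' cell-type names were not used here.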

Additional observations from a re-analysis of the deposited data

Results flagged for a closer look

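Pools that stood apart were looked for with the limits of Dixon's test at the 95% level. For normally distributed values these limits flag about 1 in 20 by chance. The groups mix ages and cell types, so that rate does not hold here and the flags are a description. In 7 of 48 groups of 4 to 10 pools, 1 pool stood apart from the others. These were E18.5 replicate 1 for *Tcf21* (705 CPM, next highest 126.7 CPM), E14.5 replicate 2 for *Acta2* (573 and 290 CPM) and for *Myh11* (61.1 and 12.9 CPM), E11.5 replicate 2 for *Cnn1* (1.51 CPM, the others at 0), E17.5 replicate 2 for *Cnn1* (29.6 and 3.41 CPM), and PND8 replicate 1 for *Cnn1* (60.9 and 17.6 CPM) and for *Des* (78.4 and 36.3 CPM). For *Cnn1* at E11.5 and E12.5 any count would have stood apart, because the other pools were at 0. E14.5 replicate 2 is also the fetal pool with the smallest share of cells high in Sertoli genes (6.25%), and its part in these levels was not tested.

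The difference between Negative and fluorescent cells was itself different at E16.5 to E18.5 and at E11.5 to E15.5 for 5 members by the interaction term in edgeR. It changed by −7.04 for *Cnn1*, −4.07 for *Myh11*, −3.82 for *Acta2*, −2.86 for *Des* and −2.31 for *Pdgfra* on the log2 scale.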

How the results depend on the processing

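Of 1270 alternatives to 62 values of the members, 1197 kept the direction and the side of the threshold, 10 lost a call, 7 gained one and 56 changed direction, none of the 56 in a called value. The 5 members called between the gates kept their calls without any of the 16 pools and under all other settings run. The share of all genes called moved more. E13.5 to E14.5 against E11.5 to E12.5 gave 0.0137%, 0.989% by DESeq2, 0.172% without a filter, 0.117% without cells high in Sertoli genes and 0% to 0.0523% without 1 pool. E17.5 to E18.5 against E13.5 to E14.5 gave 0.22%, 2.51% by DESeq2, 0.419% without a filter, 0.145% without cells high in blood genes, 0.592% without cells high in Sertoli genes and 0.0792% to 0.523% without 1 pool. PND5 to PND8 against PND0 to PND2 gave 0.0729%, 0.0292% with size factors or without cells high in blood genes, 1.56% by DESeq2, 0.187% without a filter, 0.00754% with at least 5 cells, 0% with at least 20 cells, without cells high in Sertoli genes or with *Ddx4* and *Dazl* under 150 CPM, 0.118% and 12.4% with *Ddx4* under 50 and 300 CPM and 0% to 0.301% without 1 pool. Distal against proximal gave 0.0166%, 0.871% by DESeq2, 0.94% without a filter (with 1 member, *Nr2f2*), 0% with no replicate block, 0.00829% without cells high in blood genes and 0% to 0.378% without 1 pool (0 to 1 member). *Helq* null against wild type gave 0.093%, 0.628% by DESeq2, 0.601% without a filter and 0.069% to 0.133% without 1 pool. The gates by age gave 22.7%, 14.6% without a filter and 14.8% to 19.05% without 1 pool (3 to 6 members), the gates 58.8% to 60.6% and the fluorescent cells 55.8% to 62.6% without 1 pool (4 to 7 members). The cause of these moves was not tested.

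The replicate numbers of different ages did not deviate together (mean correlations of 0.00708 to 0.0367, lowest −0.348), so they do not pair the pools. With the replicate number as a block 0.0137%, 0.172%, 0% and 0.0697% of genes were called for the 2 fetal, the postnatal and the genotype comparison, with 0 members in each. Estimates that passed no test changed sign as follows: *Cnn1* between gates −0.17 with no replicate block; *Tcf21* 0.0024 at E13.5 to E14.5 without cells high in blood genes and 0.043 at E17.5 to E18.5 with size factors and by DESeq2; and *Cnn1* −0.10 there with the replicate block. Without cells high in Sertoli genes *Nr2f2* (0.44), *Tcf21* (0.52), *Cnn1* (−2.70) and *Des* (0.26) did so at E17.5 to E18.5, *Acta2* (0.65) at PND5 to PND8, and *Pdgfra* (−0.31), *Acta2* (−0.25), *Myh11* (−1.18), *Tagln* (−1.14) and *Des* (−1.67) in the distal part. With *Ddx4* under 300 CPM, *Acta2* (0.23) and *Cnn1* (−1.75) did so after birth, and in the distal part *Tcf21* (0.21), *Myh11* (−0.29) and *Des* (−0.17) with no replicate block. Without 1 pool, values at E17.5 to E18.5 ranged from −1.90 to 0.60 (*Cnn1*), −0.68 to 0.12 (*Des*), −0.84 to 1.92 (*Myh11*), −0.61 to 0.19 (*Nr2f2*), −0.10 to 1.17 (*Pdgfra*) and −1.45 to 0.37 (*Tcf21*). They ranged from −0.32 to 0.39 for *Tcf21* at E13.5 to E14.5, −0.61 to 0.11 for *Acta2* after birth and, in the distal part, −0.037 to 0.85 (*Cnn1*), −0.31 to 0.79 (*Des*), −0.57 to 0.51 (*Myh11*), −0.092 to 0.75 (*Tagln*) and −0.62 to 0.23 (*Tcf21*). Pairs above expectation in fetal cells numbered 28 at 100000 UMIs, 23 at 200 CPM and 21 without cells high in Sertoli genes. The comparison of parts with at least 20 cells could not be fitted.

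Levels are sums over mixtures of cells, and counts of cells carry counting error only.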
